A study of Rattus norvegicus with 18 samples.

Results

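The unfolded protein response and the ATF4 transcription programme were followed through 37 genes in bone marrow stromal cell cultures from rats on a high-fat diet (HFD) or a normal diet (ND). The genes were taken by name and fall into 10 stress transcription factors and their regulators, 6 amino acid genes that ATF4 drives, 14 chaperones and folding enzymes of the endoplasmic reticulum (ER), 3 genes of ER-associated degradation, and 4 genes for the sensors and XBP1. A probe set annotated to exactly 1 of them was found for 36 genes, and all 36 were bright enough to be tested, among 11446 named genes tested. Ern1, which encodes the sensor IRE1, was not analysed here.

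Sprague-Dawley rats, 6 weeks old when feeding began, received HFD (60% basal diet, 20% lard, 10% sucrose and 10% egg yolk powder) or ND (100% basal diet) for 1, 2 or 4 months. Whole marrow was plated, the adherent cells were passaged, and total RNA was measured on Affymetrix rat arrays, 3 for each diet and time and 18 in all. The sample labels give passage 3 and the series description passage 1, which the sources used here do not settle. The labels do not tie arrays to animals, so p-values measure the spread between arrays, part of which may be technical. Levels below are log2 intensities of deposited RMA values, on which 1 unit is a 2-fold change, and they are compared between arrays but never between probe sets.

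Proteins that enter the ER are folded by resident chaperones, and when unfolded protein accumulates, the sensors PERK, IRE1 and ATF6 start a response that raises those chaperones and the machinery that removes misfolded proteins. ATF6 and XBP1 act on chaperone promoters, while PERK slows translation and allows ATF4 to be made. A different kinase, which senses amino acid shortage, does the same. ATF4 in turn drives amino acid synthesis, amino acid import and a group of stress regulators such as CHOP (Ddit3). Stromal cells that secrete collagen carry a heavy load of ER folding, and the ATF4 genes also respond to the nutrients in the culture medium.

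The cultures expressed stromal genes, with Thy1 at 11.71 to 12.13, Col1a1 at 12.04 to 12.70 and 13 of 14 stromal markers above the intensity filter, Lepr being the exception. Macrophage markers were present too, 24 of 25 above the filter, and the mean of those with a value on every array spanned 5.64 units between arrays. Of 6 endothelial markers on the array 1 was above the filter, Tie1, and Pecam1 read 1.86 to 2.90. In such mixed RNA, fewer cells of a type and less RNA per cell cannot be told apart. The deposited column of ND 1-month replicate 1 was displaced by 1343 rows and was moved back, which leaves Atf4, Nupr1, Phgdh, Herpud1 and Eif2ak3 with 2 ND arrays at 1 month.

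In outline, no member passed limma's test in any of 11 diet or time comparisons, and the ATF4 genes differed by several fold among replicates of a group. Trib3, Chac1, Asns and their partners moved up and down together from array to array, whereas most ER chaperones followed Trib3 less closely. At 2 months 10 of 14 chaperones lay lower on every HFD array than on every ND array, against 14.8% of named genes. Their differences were small and missed the threshold. A single array, ND 4-month replicate 2, carried the highest level of all 14 chaperones and of many ATF4 genes.

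**Figure D1:**
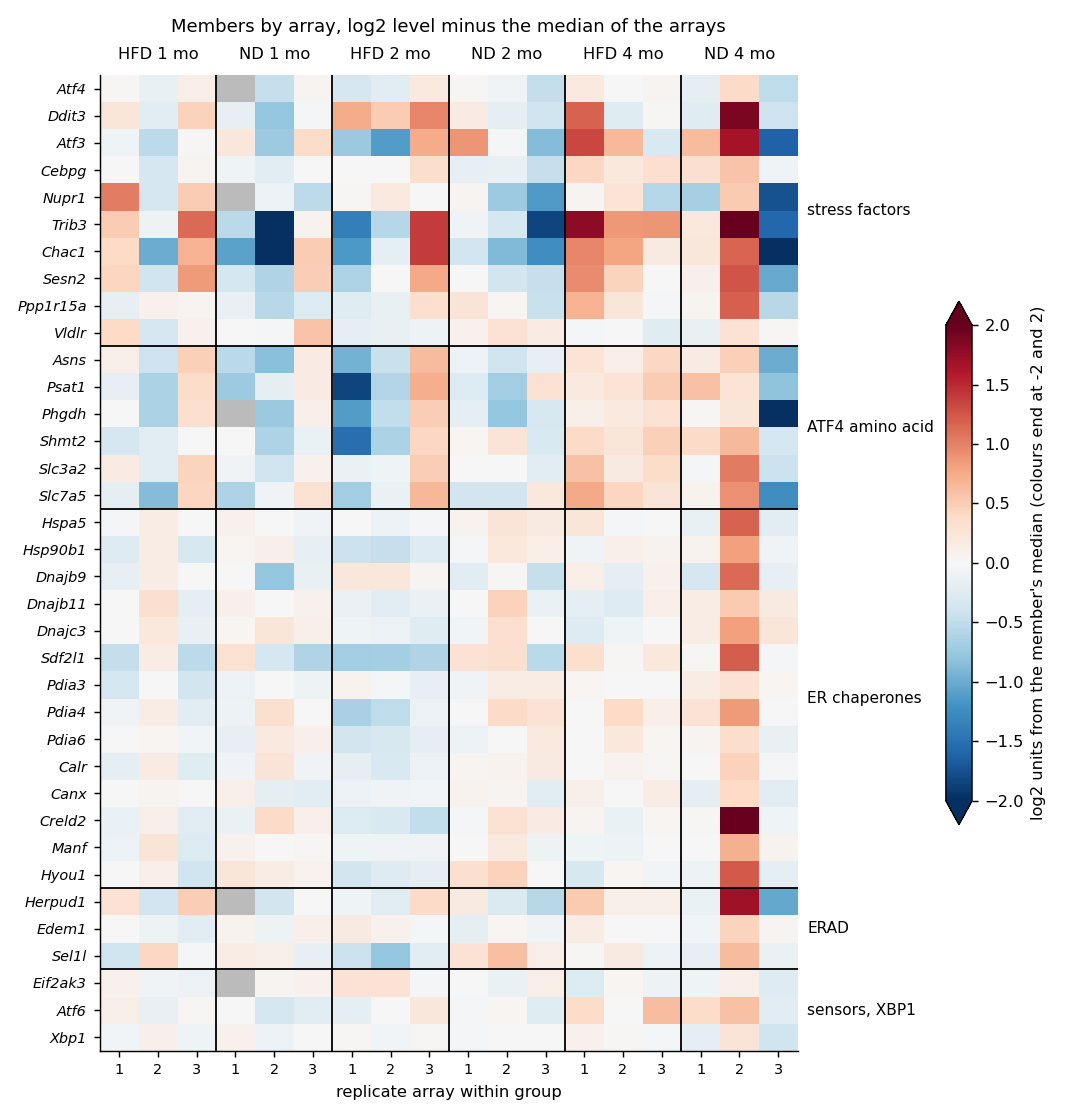
Level of each of the 36 members on each of the 18 arrays, as log2 units above (red) or below (blue) the member's median over arrays, with colours ending at -2 and 2, columns by group and replicate, rows by role, and grey where ND 1-month replicate 1 has no value. ND 4-month replicate 2 is red in all 14 chaperone rows, and the ATF4 rows change colour together between replicates of one group.

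ND 4-month replicate 2 stood apart from the other arrays in these genes. It gave the highest level of 28 of the 36 members, where 7.35% of all named genes were highest there. The 28 comprised 14 of 14 chaperones, 3 of 3 degradation genes, 7 of 10 stress regulators, 3 of 6 amino acid genes and 1 sensor gene, Xbp1. In all, 13 of 36 members lay over 1 unit above their median of the other arrays, against 2.6% of all named genes.

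Creld2, an ER protein that assists disulfide folding, showed the widest gap. It read 11.08 on that array and 8.29 to 9.17 on the other 17 arrays, 5.03-fold above their median. Hspa5, the main ER chaperone BiP, read 12.59 there and 11.20 to 11.68 elsewhere. Herpud1, an organiser of ER-associated degradation, read 10.78 there and 8.06 to 9.61 elsewhere. All 3 genes thus had 1 array clear of a narrow or moderate band formed by the rest.

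The same array also led for other chaperones and for the stress factor CHOP. Sdf2l1, a partner of BiP, read 10.55 there, 0.89 above the next array. Dnajb9, a BiP co-chaperone, read 9.87, 0.92 above the next. Hyou1, a nucleotide exchange factor for BiP, read 8.92, 0.77 above the next. Ddit3 read 8.94, 0.70 above the next. Among the other stress regulators and the amino acid genes the gap was smaller, at most 0.52, for Ppp1r15a. It was 0.25 for Trib3 and 0.19 for Atf4. Chac1, Nupr1, Vldlr, Asns, Psat1 and Phgdh were higher on another array, so the ATF4 branch was only partly separated. The mean of the 14 chaperones, each centred over the arrays, was 0.86 there and between -0.25 and 0.21 on the other 17 arrays.

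Other lists on ND 4-month replicate 2 were measured beside it. The macrophage mean was the highest of all arrays there, at 2.02, and the cell cycle mean was -0.56; their part in the result was not tested. On the 3 arrays with the next highest macrophage means, ND 2-month replicate 1 at 1.79, HFD 4-month replicate 1 at 1.75 and ND 2-month replicate 2 at 1.69, the chaperone means were 0.00, -0.02 and 0.21, the last being the highest of the other arrays. Lists of further genes gave 0.09 on ND 4-month replicate 2 for 25 ER folding and redox genes, within a range of -0.12 to 0.11 over all arrays, and -0.02 for 17 ER translocation and export genes. For 12 further degradation genes it was 0.10 and for 23 further ATF4 and amino acid response genes 0.49, the highest of all arrays for both lists. ND 4-month replicate 3 was the opposite extreme for the ATF4 genes: it gave the lowest level of 14 members, 6 of them stress regulators and 4 of them amino acid genes, where 10.8% of named genes were lowest. Because both arrays belong to ND at 4 months, the comparisons with that group are also given without replicate 2.

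The promoters of the members are shown as sequence, and whether they bear on the array values was not tested. RefSeq (GRCr8) gave 33 windows of 250 bases before to 50 bases after the gene start for 31 members, and Atf3, Ern1, Atf6, Pdia3, Pdia6 and Manf had none in the table used. The ER stress response element, ERSE, was searched on both strands as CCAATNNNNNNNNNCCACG, and its shorter form, ERSE-II, as ATTGGNCCACG; these are letters that ATF6 and XBP1 are known to act on in mammals. ERSE was found in 0.0657% of 33469 promoter windows of the same length and ERSE-II in 0.0508%. Among the members, ERSE occurred in the windows of Calr, Canx, Creld2, Dnajc3, Hsp90b1, Hspa5 and Xbp1, and ERSE-II in those of Dnajb11, Herpud1 and Hyou1. Of the 12 chaperone windows, 6 held ERSE and 2 held ERSE-II, whereas none of the 9 windows of stress regulators or the 7 of amino acid genes held either. These letters were known from ER stress genes before the search, so matches in chaperone windows were likely in advance. The counts describe sequence and are no result about these arrays. The 2 searches share the letters CCACG, so they are not independent of each other, and the absence of a match says only that those letters are not in the window.

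The ERSE matches of the members are set out as read on the strand that carries them, to show which positions are fixed and which vary.
Hspa5: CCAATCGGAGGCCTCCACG
Hsp90b1 far site: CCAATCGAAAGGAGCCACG
Hsp90b1 near site: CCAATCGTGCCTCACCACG
Creld2: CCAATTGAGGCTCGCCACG
Calr: CCAATCAGGGTCGACCACG
Canx: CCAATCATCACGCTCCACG
Dnajc3: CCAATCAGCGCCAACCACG
Xbp1: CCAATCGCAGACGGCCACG

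The 250 bases before the start are printed 5′ to 3′ on the strand of the gene for the 3 chaperones with the array values that the account turns on, with ERSE in capitals. Hspa5 lies on the plus strand at chr3:38452766-38453015, Creld2 on the plus strand at chr7:121789134-121789383 and Hsp90b1 on the minus strand at chr7:23012294-23012543. The match begins 43 bases before the start in Hspa5 and 145 in Creld2, and 176 and 72 in Hsp90b1. In Creld2 and at the nearer place in Hsp90b1 it runs on the opposite strand, and the capitals show its complement.
Hspa5: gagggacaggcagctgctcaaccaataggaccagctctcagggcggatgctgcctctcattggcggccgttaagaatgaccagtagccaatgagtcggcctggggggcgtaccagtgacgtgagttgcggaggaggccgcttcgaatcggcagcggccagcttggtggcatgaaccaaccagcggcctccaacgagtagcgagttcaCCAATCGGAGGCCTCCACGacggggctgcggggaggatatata
Creld2: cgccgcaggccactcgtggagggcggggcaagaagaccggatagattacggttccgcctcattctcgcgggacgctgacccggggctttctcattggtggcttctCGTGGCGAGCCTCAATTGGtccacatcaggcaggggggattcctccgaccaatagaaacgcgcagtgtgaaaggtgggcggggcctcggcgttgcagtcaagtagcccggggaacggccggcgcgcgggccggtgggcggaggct
Hsp90b1: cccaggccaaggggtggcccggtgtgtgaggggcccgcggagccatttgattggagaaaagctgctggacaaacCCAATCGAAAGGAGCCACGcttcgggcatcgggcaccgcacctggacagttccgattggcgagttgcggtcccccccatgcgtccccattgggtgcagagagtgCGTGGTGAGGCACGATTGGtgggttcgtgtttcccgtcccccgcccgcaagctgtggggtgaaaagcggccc

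The ATF4 genes were examined for the C/EBP-ATF response element, CARE, to which ATF4 dimers bind, searched on both strands as TGATGNAAN. It was present in 3.97% of the 33469 windows, and among the members in those of Chac1, Herpud1, Nupr1 and Trib3. Known ATF4 sites can lie outside such a window, and none of the 7 amino acid gene windows matched. The 3 windows printed here carry it on the opposite strand, so that the capitals show its complement, beginning 22 bases before the start in Trib3, 168 in Chac1 and 185 in Herpud1. Herpud1 holds ERSE-II as well, the second stretch in capitals, 124 bases before the start, and is the 1 member with both kinds of match. Trib3 lies on the minus strand at chr3:161275534-161275783, Chac1 on the plus strand at chr3:126795881-126796130 and Herpud1 on the minus strand at chr19:10614708-10614957.
Trib3: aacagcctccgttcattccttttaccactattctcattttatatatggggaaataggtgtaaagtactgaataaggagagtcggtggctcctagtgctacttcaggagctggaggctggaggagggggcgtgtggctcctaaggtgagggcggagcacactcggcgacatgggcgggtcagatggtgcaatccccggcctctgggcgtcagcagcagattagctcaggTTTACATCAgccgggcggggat
Chac1: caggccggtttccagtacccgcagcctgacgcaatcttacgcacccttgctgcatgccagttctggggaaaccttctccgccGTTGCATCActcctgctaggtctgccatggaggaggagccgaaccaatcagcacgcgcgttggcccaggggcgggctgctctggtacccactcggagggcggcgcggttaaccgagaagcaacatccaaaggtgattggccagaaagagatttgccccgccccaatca
Herpud1: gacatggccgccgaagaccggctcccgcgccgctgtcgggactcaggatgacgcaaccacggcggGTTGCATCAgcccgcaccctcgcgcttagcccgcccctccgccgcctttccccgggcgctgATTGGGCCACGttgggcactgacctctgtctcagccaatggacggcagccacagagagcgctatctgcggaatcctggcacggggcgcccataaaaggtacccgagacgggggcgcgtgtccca

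Among the stress regulators, Trib3 and Chac1 spread most. Trib3 is a pseudokinase induced by ATF4, and it read 8.59, 7.99 and 9.22 on HFD and 7.54, 5.65 and 8.15 on ND at 1 month. At 2 months it read 6.72, 7.52 and 9.49 on HFD, against 8.02, 7.74 and 6.25 on ND. At 4 months it read 9.88, 8.95 and 8.97 on HFD, against 8.29, 10.13 and 6.52 on ND. The diets overlapped at every time, and its range over the arrays was 4.48 units, or 22.3-fold. Its probe set is of a type that can bind more than 1 transcript, and the other 2 probe sets of Trib3 gave 2-month diet differences of 0.55 and 0.49, beside 0.58 for the one used. Chac1, an enzyme that degrades glutathione, ranged over 4.07 units, with 9.99 on HFD 2-month replicate 3 and 5.92 on ND 4-month replicate 3 as its extremes.

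The ATF4 branch had wider spread within groups than the chaperones. The median within-group SD was 0.66 for the 10 stress regulators, 0.59 for the 6 amino acid genes and 0.22 for the 14 chaperones, beside 0.20 for all 11446 named genes. All 6 amino acid genes and 7 of 10 stress regulators lay among the 25% of named genes with the highest SD, as did 5 of 14 chaperones. The 3 stress genes outside it were Atf4 itself, Cebpg and Vldlr, a lipoprotein receptor, with SDs of 0.29, 0.20 and 0.24. Without ND 4-month replicate 2 the median range of the chaperones was 0.64 units, against 1.19 with it, and that of the stress regulators was 1.95 against 2.46.

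The members not shown array by array had these ranges over the arrays. Atf4 ranged from 10.58 to 11.48, a narrow band next to its targets. Sesn2, an inhibitor of the growth kinase complex mTORC1, ranged from 7.27 to 9.54, and Ppp1r15a, which guides a phosphatase to restart translation, from 7.40 to 9.16. Phgdh, the first enzyme of serine synthesis, ranged from 6.82 to 9.37. Manf, a secreted ER stress protein, ranged from 10.28 to 11.27, and the lectin chaperones Calr and Canx from 9.97 to 10.74 and from 10.34 to 10.96.

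**Figure D2:**
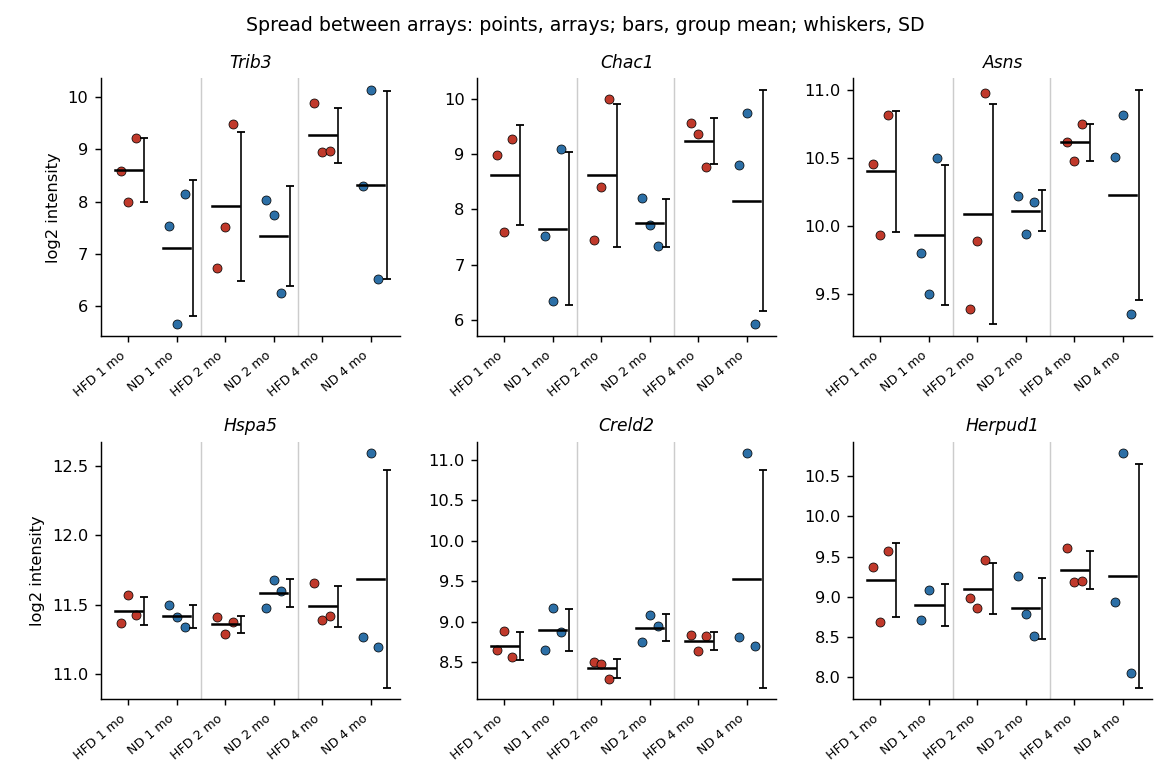
Log2 intensity on each array (points, HFD red, ND blue), with the group mean (bar) and SD (whisker, n = 3 arrays, 2 for Herpud1 on ND at 1 month), for 3 ATF4 genes (top) and 3 genes of the ER branch (bottom). Trib3, Chac1 and Asns spread in most groups, while Hspa5 and Creld2 stay in a narrow band apart from the single ND 4-month array at 12.59 and 11.08.

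The ATF4 genes varied together across arrays. Trib3 was taken as a yardstick because of its range and Hspa5 as the chaperone of reference, both chosen after their values were seen, and 70 relations were computed, that between Trib3 and Hspa5 from both sides, with permutation p-values adjusted over the 70. Atf4, the transcription factor that heads the programme, followed Trib3 with r = 0.95 and rho = 0.93 over 17 arrays, and r was 0.94 without the 2 arrays farthest from the Trib3 median (permutation p = 1e-05 for both, the smallest that 100000 permutations give, adjusted 0.00014 for r and 0.000117 for rho). Slc3a2, the heavy chain shared by several amino acid transporters, gave r = 0.91 and rho = 0.95 over 18 arrays, and r = 0.92 without those 2 (permutation p = 1e-05 for both, adjusted 0.00014 and 0.000117). Asns, asparagine synthetase, gave r = 0.87 and rho = 0.91, and r = 0.84 without those 2 (permutation p = 2e-05 and 1e-05, adjusted 0.000233 and 0.000117). These 3 relations therefore did not rest on those 2 arrays, ND 1-month replicate 2 and ND 4-month replicate 2. The array with the lowest level of all 3 genes, ND 4-month replicate 3, was not left out.

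The likeness held for most but not all of the branch. The median r with Trib3 was 0.79 over the other 9 stress regulators and 0.74 over the 6 amino acid genes, and it was 0.75 and 0.74 without the 2 farthest arrays. Of these 15 genes, 10 had an r over 0.7, where 1.03% of 10563 named genes with a value on every array did. Vldlr had the lowest value, with r = 0.10 and rho = 0.09 (permutation p = 0.688 and 0.711, adjusted 0.719 and 0.799). The 12 tRNA synthetases of the ATF4 programme, which are no members, had a median r of 0.77. Herpud1 went with the ATF4 genes, at r = 0.81 and rho = 0.89 over 17 arrays, and r = 0.85 without the 2 farthest (permutation p = 3e-05 and 1e-05, adjusted 0.0003 and 0.000117). The arrays share their processing, and r after subtracting each group's mean was 0.99 for Atf4, 0.91 for Slc3a2 and 0.83 for Herpud1, so the likeness was present within groups.

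The chaperones were mostly less close to Trib3. Their median r with it was 0.20, and -0.10 without the 2 farthest arrays, and none of the 14 exceeded 0.7. Canx came nearest, with r = 0.67 and rho = 0.59, and r = 0.53 without those 2 (permutation p = 0.00219 and 0.0118, adjusted 0.00818 and 0.0375), a value like that of Slc7a5 (r = 0.68). Dnajb9 gave r = 0.61 and rho = 0.38, and r = 0.26 without those 2 (permutation p = 0.00525 and 0.122, adjusted 0.0153 and 0.306). Among themselves, the 13 other chaperones had a median r of 0.71 with Hspa5, and 8 of them exceeded 0.7, where 0.322% of named genes did. Without the 2 arrays farthest from the Hspa5 median, ND 4-month replicate 2 and ND 2-month replicate 2, the median r was 0.19 and none exceeded 0.7. For Hsp90b1, the ER form of the Hsp90 chaperone, r was 0.79 and rho 0.59 over 18 arrays (permutation p = 0.00173 and 0.011, adjusted 0.00762 and 0.0368), and r was 0.35 without those 2. The r values of the chaperones with Hspa5 thus rested largely on those arrays. By rank over 18 arrays, Canx, Sdf2l1 and Calr gave rho of 0.64, 0.63 and 0.60 (adjusted permutation p 0.0203, 0.0213 and 0.0368). Apart from Hsp90b1, the remaining chaperones had adjusted permutation p-values for rho of 0.0655 or more. Relations between chaperones other than Hspa5 were not computed. Xbp1 kept its relation to Hspa5, with r = 0.72 and rho = 0.66, and r = 0.75 without the 2 (permutation p = 0.00798 and 0.0038, adjusted 0.0223 and 0.0177).

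**Figure D3:**
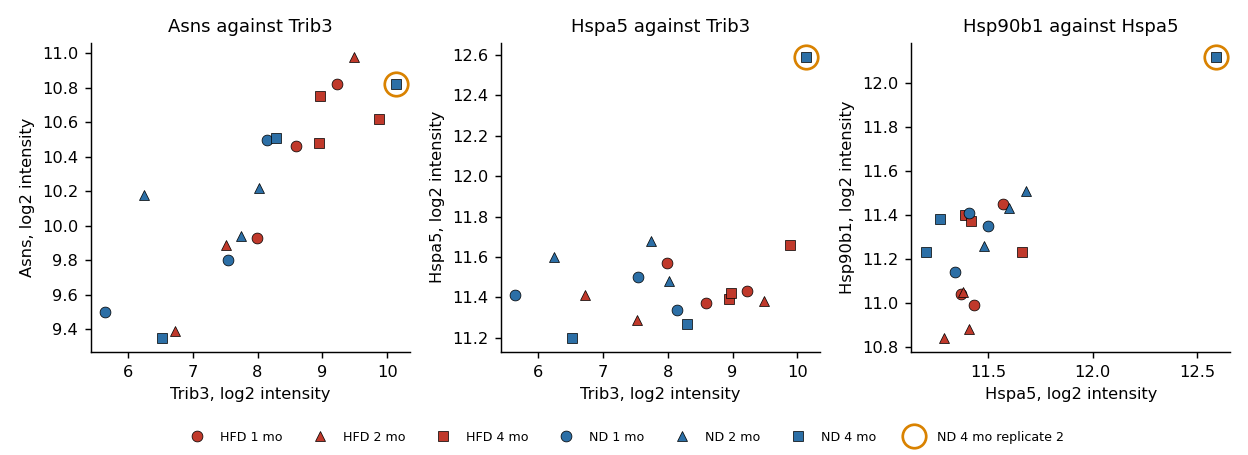
Log2 intensity of pairs of members on the 18 arrays, coloured by diet and shaped by feeding time, with ND 4-month replicate 2 ringed in orange. Asns follows Trib3 along the whole range (r = 0.87), Hspa5 less closely (r = 0.41), and the relation of Hsp90b1 to Hspa5 (r = 0.79) is 0.35 without the ringed array and 1 other.

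The first question of the design is whether HFD changed these genes at a given feeding time. At 2 months, where the diets differed most over the whole array, no member passed limma's test at an adjusted p under 0.05, against 2.49% of named genes, and 6 of 36 had an unadjusted p under 0.05, against 21.3%. Neither share exceeded the background. Groups without overlap were more common: 12 of 36 members lay below ND on all 3 HFD arrays, against 14.8% of named genes, and 3 lay above, against 10.7%.

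The ER chaperones made up most of the 2-month separation. Among them, 10 of 14 lay lower on all 3 HFD arrays than on all 3 ND arrays, against 14.8% of named genes. A negative difference was found for 13 of 14, with a median of -0.29. The median was -0.04 for all named genes, of which 44.7% had a positive difference. Pdia4, a protein disulfide isomerase, read 9.44, 9.58 and 9.96 on HFD and 10.07, 10.46 and 10.37 on ND. The log2 difference was -0.64 ± 0.21 (SE), with an adjusted p of 0.111 by limma. Hsp90b1 read 10.88, 10.84 and 11.05 on HFD, against 11.26, 11.51 and 11.43 on ND, a difference of -0.48 ± 0.19 with an adjusted p of 0.179. Both genes were lower on HFD in every array pair, by amounts that missed the threshold.

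Sdf2l1 and Hyou1 showed differences of like size. Sdf2l1 read 8.64, 8.66 and 8.73 on HFD, a tight group, against 9.62, 9.66 and 8.79 on ND, a difference of -0.68 ± 0.33 with an adjusted p of 0.251. Hyou1 read 7.32, 7.43 and 7.50 on HFD, against 8.01, 8.15 and 7.68 on ND, a difference of -0.53 ± 0.28 (adjusted p 0.296). Smaller differences without overlap were found for Pdia6 (-0.32), Calr (-0.31), Creld2 (-0.50), Dnajb11 (-0.27), Dnajc3 (-0.23) and Hspa5 (-0.23). Some of the margins were very narrow. The highest HFD and lowest ND values were 8.90 and 8.91 for Dnajb11, 9.20 and 9.23 for Dnajc3, and 8.73 and 8.79 for Sdf2l1. Dnajb9 ran the other way, with 8.95, 8.95 and 8.79 on HFD and 8.51, 8.75 and 8.27 on ND. Its difference was 0.39 ± 0.30, with an adjusted p of 0.475.

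Calnexin, Canx, was the 1 chaperone whose probe sets disagreed on the call. The brightest, which stands for the gene, gave -0.05 with an adjusted p of 0.874 at 2 months, and a second gave -0.28 with 0.180. The third read 7.16, 7.23 and 7.51 on HFD, against 7.86, 8.03 and 8.03 on ND, and was lower on HFD by -0.67 ± 0.14 with an adjusted p of 0.0269. It was the only 1 of 50 member probe sets to pass at 2 months, where 2.54% of all tested probe sets passed. Its call was kept under 24 of 31 alternatives and was lost when any of 5 of the 6 arrays compared was left out, with an adjusted p of up to 0.119.

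Sel1l, a scaffold of the ER membrane complex that exports misfolded proteins, had the lowest adjusted p of all members. It read 6.08, 5.73 and 6.28 on HFD and 6.80, 7.11 and 6.64 on ND at 2 months. The difference was -0.82 ± 0.24 with an adjusted p of 0.0768, and without ND 4-month replicate 2, which takes no part in the comparison but in the estimate of spread, it was 0.0479. Edem1, a lectin that hands glycoproteins to degradation, read 9.94, 9.84 and 9.72 on HFD, against 9.56, 9.79 and 9.69 on ND, with overlap. Its brightest probe set gave 0.15 ± 0.13, but its 2 others gave -0.54 and -0.58, so the direction for this gene depends on the probe set.

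The stress regulators lay mostly on the other side at 2 months. Of the 10, 8 had a positive difference, with a median of 0.35, and 2 lay above ND without overlap. Ddit3 read 7.80, 7.57 and 8.04 on HFD and 7.22, 6.88 and 6.66 on ND, a difference of 0.88 ± 0.50 with an adjusted p of 0.321. Cebpg, a dimer partner of ATF4, read 7.83, 7.86 and 8.19 on HFD, against 7.68, 7.70 and 7.39 on ND, a difference of 0.37 ± 0.16 with an adjusted p of 0.213. A second Cebpg probe set gave -0.34, so that its direction also depends on the probe set. Vldlr lay below ND without overlap, by -0.33.

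The amino acid genes showed no diet separation at 2 months, and the HFD arrays lay on both sides of the ND arrays. Psat1, an enzyme of serine synthesis, read 7.90, 9.15 and 10.45 on HFD, against 9.45, 9.03 and 10.03 on ND. Shmt2, the mitochondrial enzyme that splits serine for one-carbon metabolism, read 7.54, 8.41 and 9.47 on HFD, against 9.09, 9.31 and 8.75 on ND. Their differences were -0.34 ± 0.52 and -0.58 ± 0.37, and the median of the 6 genes was 0.01. HFD replicate 1 was the lowest and HFD replicate 3 the highest of the 6 arrays for both genes.

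The sensor genes differed little. Eif2ak3, which encodes PERK, read 7.37, 7.37 and 7.04 on HFD and 7.08, 6.95 and 7.22 on ND at 2 months, a difference of 0.18 ± 0.13 (adjusted p 0.456). Atf6 read 8.49, 8.67 and 8.89 on HFD, against 8.64, 8.71 and 8.43 on ND, a difference of 0.09 ± 0.20 (adjusted p 0.822). Xbp1 differed by 0.00 ± 0.13. XBP1 is activated by splicing of its RNA, which a probe set level does not measure.

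**Figure D4:**
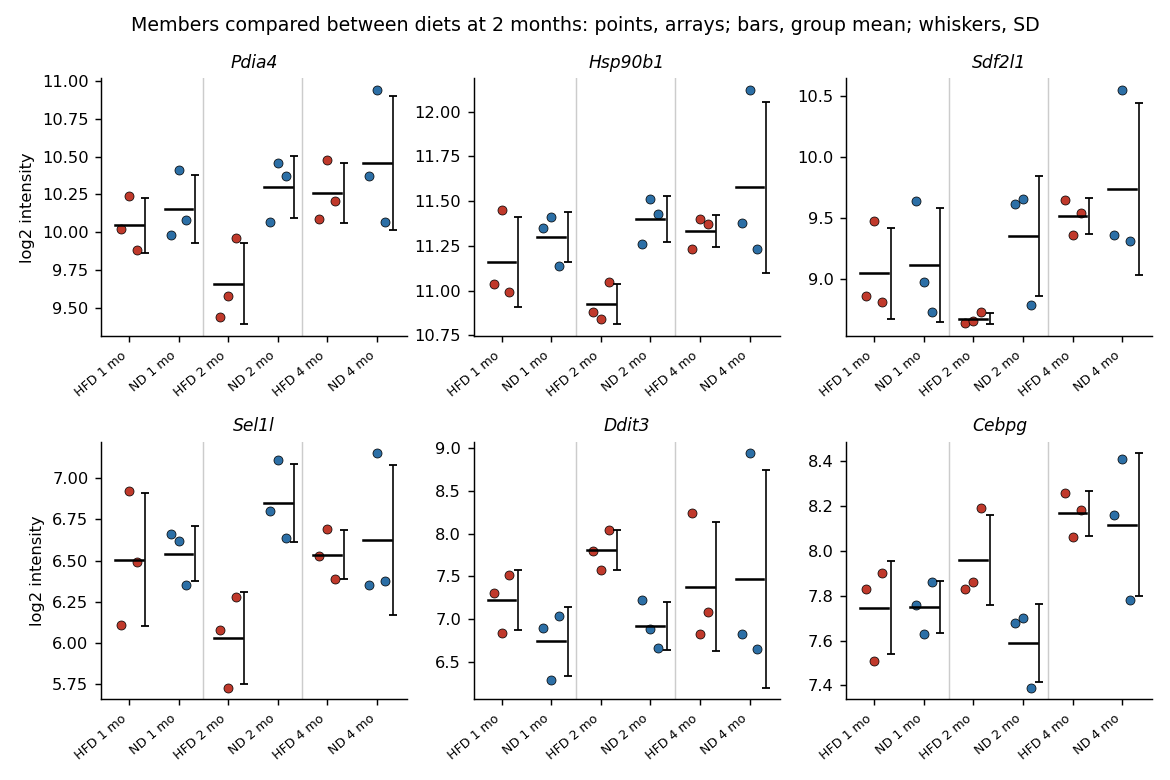
Log2 intensity on each array (points, HFD red, ND blue) with group mean (bar) and SD (whisker, n = 3 arrays) for 4 members that were lower and 2 that were higher on HFD at 2 months. The 2-month HFD and ND points do not overlap in any of the 6 panels, the largest difference being 0.88 for Ddit3, and none passed at an adjusted p under 0.05.

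Other measures differed at 2 months as well. All 24 macrophage markers tested had a negative difference, with a median of -1.58, as had all 19 cell cycle genes, with a median of -0.74, although none of either passed in limma and 1 and 5 had an unadjusted p under 0.05; the macrophage mean on the 3 HFD arrays was -2.63, -1.11 and 0.01, against 1.79, 1.69 and -1.96 on ND. With the macrophage mean as a covariate, the median of the chaperones was -0.23, beside -0.29 without it, and 12 of 14 stayed negative. Sdf2l1 was then at -0.29, beside -0.68, and Pdia4 at -0.59, beside -0.64. Of 13 stromal markers 2 passed, both lower on HFD: Cxcl12, a chemokine of marrow stroma, by -3.20 with an adjusted p of 0.00922, and Pdgfra, a growth factor receptor, by -1.08 with 0.0427. The calls were kept under 29 and 18 of 31 alternatives, and that of Pdgfra was lost with the macrophage covariate. The stromal mean was -0.23, -0.34 and -0.28 on HFD, against 0.21, 0.17 and 0.04 on ND, without overlap. The part of the cell cycle genes and the stromal markers was not tested. With arrays weighted by their quality, 4 members passed at 2 months, Hsp90b1, Pdia4, Sdf2l1 and Sel1l, under a setting that called 4511 of 21729 probe sets in all, against 552.

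At 4 months no member passed in limma, where 0% of named genes did, and 2 had an unadjusted p under 0.05, against 3.04%. The chaperones again had 13 of 14 negative differences, with a median of -0.21. Among all named genes 47.5% had a positive difference, with a median of -0.01. Dnajc3, which restrains PERK, read 9.02, 9.20 and 9.28 on HFD and 9.44, 10.11 and 9.52 on ND, a difference of -0.52 ± 0.16. Dnajb11 read 8.84, 8.78 and 9.18 on HFD, against 9.19, 9.57 and 9.22 on ND, a difference of -0.39 ± 0.17. They were the 2 members below ND without overlap, against 4.64% of named genes, and the adjusted p of both was 0.999.

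Without ND 4-month replicate 2 the 4-month picture of the chaperones changed sign. Their median became 0.04, with 4 of 14 negative, and Creld2 stood at 0.01 in place of -0.77. Dnajc3 and Dnajb11 remained negative, at -0.32 and -0.27. The ATF4 genes moved further up: the median of the stress regulators became 0.78 in place of 0.26, and that of the amino acid genes 0.65 in place of 0.35. Trib3 was then 1.86 and Chac1 1.87 above ND, with adjusted p-values of 0.492 and 0.524, and ND 4-month replicate 3, which held the low extreme of Chac1, was 1 of the 2 ND arrays left. The cell cycle mean was -0.58, 0.07 and 0.43 on the HFD arrays, against 0.90 and 1.27 on those 2 ND arrays, the highest of all 18. With all arrays, 19 of 19 cell cycle genes had a negative difference at 4 months, with a median of -0.50, and 21 of 24 macrophage markers a positive one, with a median of 0.43. With the macrophage mean as a covariate the median of the stress regulators was 0.12 in place of 0.26, and that of the amino acid genes stayed at 0.35; the part of the cell cycle genes was not tested.

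**Figure D5:**
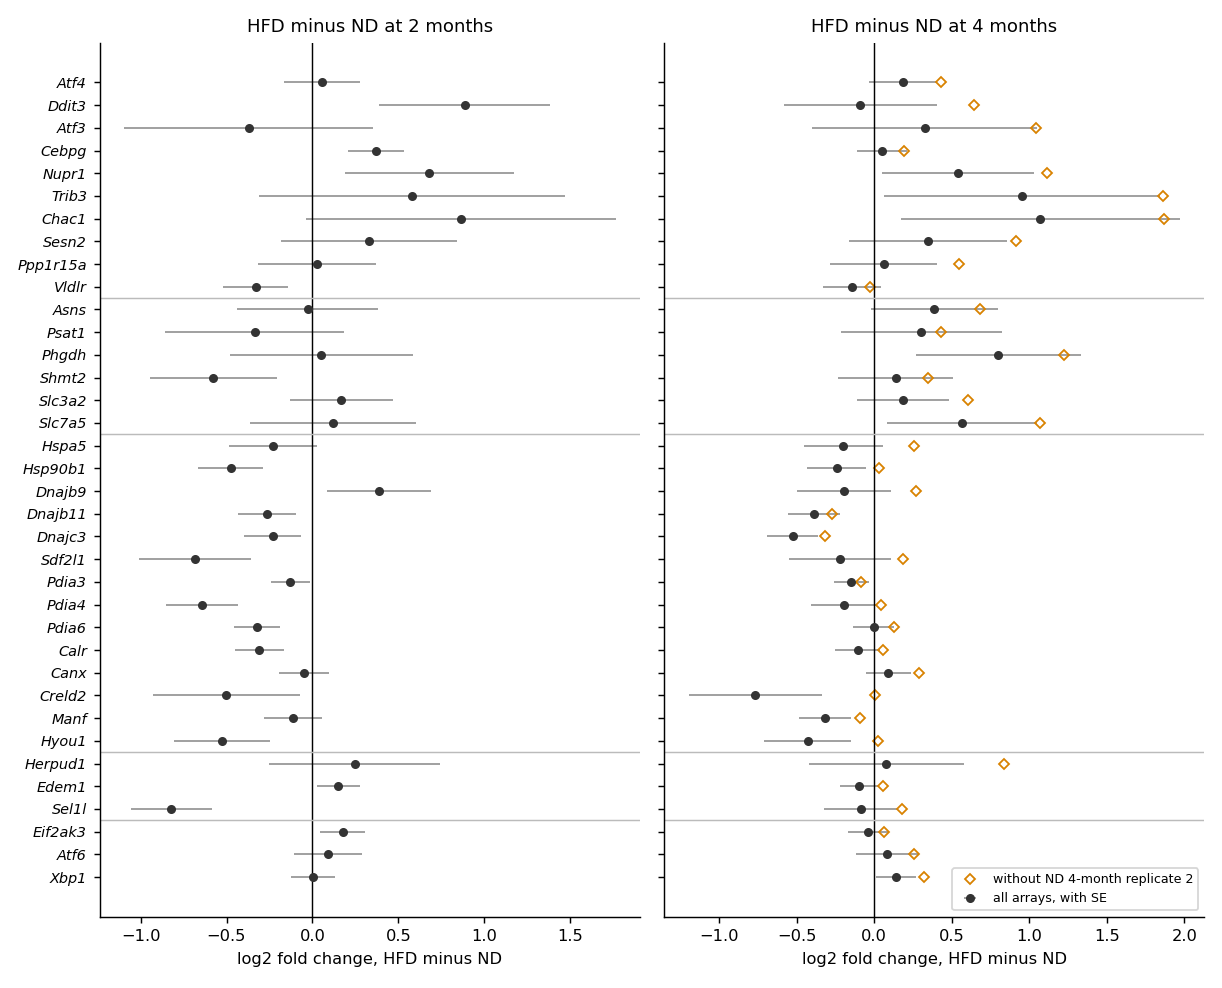
HFD minus ND log2 difference of each member at 2 months (left) and 4 months (right), with its SE from the fit of all 18 arrays, rows by role as in the map of levels. At 4 months the orange diamonds give the value without ND 4-month replicate 2: Creld2, at -0.77 with all arrays, stands at 0.01 without it.

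At 1 month no member passed in limma, where 0% of named genes did, and none had an unadjusted p under 0.05, against 8.91% of named genes. The widest difference was that of Trib3, 1.49 above ND, with values given above that overlapped. The chaperones had 11 of 14 negative differences, with a median of -0.10, and the amino acid genes 5 of 6 positive ones, with a median of 0.17. Over all named genes 37.4% had a positive difference, with a median of -0.06. Of 24 macrophage markers 21 had a positive difference, with a median of 1.66. With their mean as a covariate the median of the amino acid genes was 0.06, with 3 of 6 positive, that of the stress regulators 0.14 in place of 0.38, and that of the chaperones -0.15.

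Averaged over the 3 times, no member passed, against 2.43% of named genes, and 9 of 36 had an unadjusted p under 0.05, against 20.8%. Of those, 7 were chaperones, all negative. All 19 cell cycle genes had a negative average as well, with a median of -0.47, and their part was not tested. Dnajc3 had the lowest adjusted p, 0.103, with a difference of -0.29 ± 0.09. Its 9 HFD arrays had a lowest, median and highest value of 9.02, 9.20 and 9.49, against 9.23, 9.44 and 10.11 on ND. For Hsp90b1 the values were 10.84, 11.05 and 11.45 on HFD and 11.14, 11.38 and 12.12 on ND, a difference of -0.29 ± 0.11 with an adjusted p of 0.152. Both genes were centred lower on HFD with wide overlap. The median of the chaperones was -0.20, with 12 of 14 negative, and without ND 4-month replicate 2 it was -0.155, with 11 negative. Among all named genes 40.3% had a positive average, with a median of -0.04.

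The other roles gave smaller or less certain averages. Nupr1, a small chromatin-associated stress protein, had a lowest, median and highest value of 10.04, 10.66 and 11.63 on 9 HFD arrays, against 8.87, 10.02 and 11.14 on 8 ND arrays. Its difference was 0.65 ± 0.29 with an adjusted p of 0.225. Trib3 had 6.72, 8.95 and 9.88 on HFD, against 5.65, 7.74 and 10.13 on ND, a difference of 1.01 ± 0.51 (adjusted p 0.274). The range on ND enclosed that on HFD, although the HFD median was higher.

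Among the amino acid genes, Asns had 9.39, 10.48 and 10.98 on HFD and 9.35, 10.18 and 10.82 on ND, a difference of 0.28 ± 0.24 (adjusted p 0.525). Slc3a2 had 9.91, 10.31 and 10.72 on HFD, against 9.70, 10.11 and 11.17 on ND, a difference of 0.20 ± 0.17 (adjusted p 0.525). The ranges of the diets overlapped in both genes. Sel1l had 5.73, 6.39 and 6.92 on HFD, against 6.35, 6.64 and 7.15 on ND, a difference of -0.32 ± 0.14 (adjusted p 0.200). Herpud1 had 8.69, 9.20 and 9.61 on HFD, against 8.06, 8.87 and 10.78 on ND, a difference of 0.21 ± 0.30. Sensor genes came out closer still. Atf6 had 8.49, 8.70 and 9.29 on HFD, against 8.32, 8.64 and 9.26 on ND, a difference of 0.12 ± 0.11. Xbp1 had 10.56, 10.66 and 10.74 on HFD, against 10.24, 10.63 and 10.89 on ND, a difference of 0.05 ± 0.07.

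Of 50 member probe sets 1, a dim one of Edem1, passed, where 2.82% of all tested probe sets did: it was lower on HFD by -0.53 ± 0.13 with an adjusted p of 0.0433, while the brightest Edem1 probe set gave -0.03. That call was lost when any 1 of 13 arrays was left out, with an adjusted p of up to 0.0933, and with quantile normalization, at 0.0710.

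Whether the diet effect differed between times was tested by an F test over the 3 times. No member passed in limma, where 0% of named genes did, and none had an unadjusted p under 0.05, against 6.67% of named genes. The lowest adjusted p was 0.756, for Sel1l, whose differences were -0.04, -0.82 and -0.09 at 1, 2 and 4 months.

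The second question is whether the genes changed with feeding time within a diet. Within HFD, 4 minus 2 months gave no member that passed, against 0.769% of named genes, and 7 of 36 with an unadjusted p under 0.05, against 18.7%. This comparison shares the HFD 2-month arrays with the diet comparison at 2 months, so the 2 are not independent. Without overlap, 8 members lay higher at 4 months, against 13.7% of named genes, 7 of them chaperones and the last Sel1l. Sdf2l1 read 9.65, 9.36 and 9.54 at 4 months, against 8.64, 8.66 and 8.73 at 2 months, a difference of 0.84 ± 0.33 (adjusted p 0.213). Pdia4 read 10.09, 10.48 and 10.21 at 4 months, against 9.44, 9.58 and 9.96 at 2 months, a difference of 0.60 ± 0.21 (adjusted p 0.174). Every 4-month array lay above every 2-month array in both genes.

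Macrophage markers moved with this comparison, 24 of 24 having a positive difference with a median of 2.59, and with their mean as a covariate the chaperone median was 0.01, beside 0.17, with 7 of 14 positive in place of 13. The amino acid genes had 6 of 6 positive differences, with a median of 0.56, and 0.46 with the covariate. All 19 cell cycle genes had a positive difference too, with a median of 0.66, and Cxcl12 of the stromal markers was higher at 4 months by 2.51 with an adjusted p of 0.0352, a call kept under 21 of 31 alternatives; the part of these genes was not tested. Shmt2 differed by 0.94 ± 0.37 with an adjusted p of 0.219, which was 0.0179 without HFD 2-month replicate 3, the array where it read 9.47.

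From 1 to 4 months on HFD no member passed in limma, where 0% of named genes did, and 2 had an unadjusted p under 0.05, against 7.84%. These were Cebpg and Pdia3, an ER oxidoreductase. Cebpg read 8.26, 8.06 and 8.18 at 4 months and 7.83, 7.51 and 7.90 at 1 month, a difference of 0.42 ± 0.16 (adjusted p 0.564). Pdia3 read 11.57, 11.53 and 11.54 at 4 months, against 11.19, 11.53 and 11.17 at 1 month, a difference of 0.25 ± 0.11 (adjusted p 0.612). The 4-month arrays did not overlap the 1-month arrays in either gene, in Pdia3 by less than the rounding shown. The share of all named genes without overlap is not given for comparisons with 1 month on HFD. Separations here and below are therefore only described.

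Atf3, a stress-induced factor of the same family as ATF4, read 8.66, 7.98 and 7.03 at 4 months, against 7.25, 6.80 and 7.36 at 1 month, a difference of 0.75 ± 0.72. Shmt2 read 9.43, 9.29 and 9.53 at 4 months, against 8.71, 8.84 and 9.05 at 1 month, a difference of 0.55 ± 0.37, without overlap. Slc7a5, the transporter chain that pairs with Slc3a2, read 8.95, 8.62 and 8.44 at 4 months, against 8.01, 7.32 and 8.62 at 1 month, a difference of 0.69 ± 0.48. All 6 amino acid genes had positive differences here, with a median of 0.38 and adjusted p-values of 0.714 or more. Macrophage markers had 24 of 24 positive differences, with a median of 1.22. With their mean as a covariate the median of the amino acid genes was 0.22, still with 6 of 6 positive, and that of the chaperones -0.04, beside 0.07 without it.

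In the ER branch, Sdf2l1 read 9.65, 9.36 and 9.54 at 4 months, against 8.86, 9.48 and 8.81 at 1 month, a difference of 0.47 ± 0.33. Edem1 read 9.90, 9.74 and 9.77 at 4 months, against 9.74, 9.66 and 9.53 at 1 month, a difference of 0.16 ± 0.13. Its groups were without overlap by less than the rounding shown. The dim Edem1 probe set read 5.81, 6.24 and 5.84 at 4 months, against 5.57, 6.45 and 5.66 at 1 month, with overlap. Herpud1 read 9.61, 9.19 and 9.20 at 4 months, against 9.37, 8.69 and 9.57 at 1 month, a difference of 0.13 ± 0.50. The sensor genes went in opposite directions. Atf6 read 9.04, 8.67 and 9.29 at 4 months, against 8.79, 8.52 and 8.70 at 1 month, a difference of 0.33 ± 0.20. Eif2ak3 read 6.80, 7.12 and 6.98 at 4 months, against 7.17, 7.01 and 6.96 at 1 month, a difference of -0.08 ± 0.13. Each of these 5 differences was smaller than 2 of its standard errors. From 1 to 2 months on HFD no member passed, against 0.0961% of named genes, and 1 had an unadjusted p under 0.05, against 7.84%. It was Pdia6, which differed by -0.30 at 2 months minus 1 month, without overlap.

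Within ND no member passed in limma between any 2 times, where 0% of named genes did for each pair. The number with an unadjusted p under 0.05 was 0 for 2 minus 1 month, 1 for 4 minus 2 months and 2 for 4 minus 1 month, against 2.22%, 7.11% and 9.96% of named genes. They were Cebpg in both comparisons with 4 months, at 0.53 and 0.37, and Atf6 for 4 minus 1 month, at 0.44. All 14 chaperones had a positive difference for both 4 minus 2 and 4 minus 1 months, with medians of 0.17 and 0.25, and of 0.15 and 0.12 with the macrophage mean as a covariate. Without ND 4-month replicate 2 the medians were -0.08 and -0.01, with 3 and 7 of the 14 positive. The direction of the chaperones over time on ND thus depended on that array.

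Genes of the same pathways outside the members were read from wider lists. At 2 months, 1 of 27 further ATF4 and amino acid response genes passed, 1 of 28 further ER folding and redox genes, and none of 12 tRNA synthetases, 13 degradation genes, 18 translocation and export genes or 17 sensors and regulators, where limma called 2.49% of named genes. In the order given, 3, 9, 0, 2, 2 and 1 genes had an unadjusted p under 0.05, against 21.3% of named genes. Ero1a, the oxidase that recharges protein disulfide isomerases, read 7.51, 7.76 and 8.10 on HFD and 9.21, 9.24 and 8.56 on ND. It was lower on HFD by -1.22 ± 0.24 with an adjusted p of 0.0209, and within HFD it was higher at 4 than at 2 months by 1.44 ± 0.24 with an adjusted p of 0.0248. Both calls were lost when any 1 of 4 arrays was left out, with adjusted p-values of up to 0.107 and 0.144. With the macrophage mean as a covariate the second was 1.05 with an adjusted p of 0.0637, and with the compared arrays alone the first had an adjusted p of 0.127. The folding and redox genes had 22 of 28 negative differences at 2 months, with a median of -0.15.

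Bcl2l11, the cell death protein BIM, which CHOP can induce, read 6.36, 6.03 and 6.60 on HFD, against 7.98, 7.44 and 7.66 on ND at 2 months. It was lower on HFD by -1.37 ± 0.30 with an adjusted p of 0.0323, and averaged over the 3 times by -0.70 ± 0.17 with an adjusted p of 0.0464. The first call was lost when any 1 of 5 arrays was left out and the second when any 1 of 15 was, with adjusted p-values of up to 0.139 and 0.0957. The first was also lost with the macrophage mean as a covariate, at -1.17 with an adjusted p of 0.0558, and with the compared arrays alone, at 0.0865. The second was lost with no intensity filter, at an adjusted p of 0.0503, and with quantile normalization, at 0.0809. No gene of the wider lists passed at 1 or 4 months, where limma called no named gene.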

How the data were processed

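RNA of 18 stromal cell cultures, 3 arrays in each of 6 groups by diet and feeding time, was measured on Affymetrix arrays. The deposited table holds linear intensities of 31099 probe sets made by the authors with RMA, per the submitters' processing notes, and the array medians lay between 25.4 and 27.1. The version and annotation used upstream are not given in the sources used here.

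Values were taken to log2. The column of ND 1-month replicate 1 was moved down 1343 rows: its correlation with the other arrays was 0.0909 as deposited and 0.9901 once moved, and 20 of 20 windows of 500 rows were best at that gap. Leaving out 57 controls and the dimmest 30% (at or under 3.22 on the log2 scale) left 21729 probe sets. limma 3.58.1 in R 4.3.3 fitted 6 group means (12 residual and 2.43 prior degrees of freedom), with Benjamini-Hochberg adjustment over all 21729 in each of 11 comparisons and a threshold of 0.05. Symbols came from the platform annotation (20832 probe sets with 1 symbol, 436 with several, 9831 with none), and the brightest probe set stood for a gene. Of the members 9 had several probe sets. The fit was tested on simulated data. Python 3.11.15 and numpy 2.4.6 gave the permutation tests.

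Values per array cover the 2 members of each role with largest moderated t at 2 months and for 4 minus 1 month on HFD. For the 2 of each role with the largest on average, the lowest, median and highest value of each diet are given. Trib3 is among these, and its use as a yardstick was chosen after its values were seen. Other members shown array by array (Chac1, Hspa5, Creld2, Hyou1, Dnajb9, Dnajb11 and Canx among them) were also chosen after their values were seen. The members and lists were chosen with earlier results of these data known. Replicate numbers did not pair the arrays: the mean correlation of same-numbered arrays was -0.0254 over 45 pairs, and 5 of 18 arrays were best with their own number. Alternatives varied the filter, the normalization, array weights, the replicate block, a macrophage covariate, the choice of probe set and the arrays used.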

Additional observations from a re-analysis of the deposited data

How the results depend on the processing

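Over 350 counts of called members, 344 were 0 as in the main setting. With array weights 4 members passed at 2 months (Hsp90b1, Pdia4, Sdf2l1 and Sel1l), 3 on average (Hsp90b1, Pdia4 and Dnajc3) and 6 for 4 minus 2 months on HFD (Pdia6, Hsp90b1, Pdia4, Sdf2l1, Shmt2 and Sel1l). Fitting the compared arrays alone gave 1 for 4 minus 2 months on HFD (Sdf2l1). Leaving out 1 array at a time gave 0 to 1 at 2 months (Sel1l, without ND 4-month replicate 2) and 0 to 1 for 4 minus 2 months on HFD (Shmt2, without HFD 2-month replicate 3). With a replicate block 0 members passed in each of the 11 comparisons, while the probe sets called fell to 317 at 2 months, against 552, and 350 on average, against 612. The replicate block also ended the calls of Bcl2l11, with adjusted p-values of 0.0542 at 2 months and 0.0696 on average.

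Named members changed sign in 10 cases, none of them called. With 1 array left out at a time, the 2-month difference lay between -0.979 and 0.298 for Psat1 (positive without HFD 2-month replicate 1) and between -0.0152 and 0.187 for Atf6 (negative without HFD 2-month replicate 3). Edem1 was at -0.321 at 2 months when all its probe sets entered as a mean. If the displaced column was used as deposited, Hsp90b1 averaged 0.289 and Sel1l 0.195. For 4 minus 1 month on HFD, Herpud1 was at -0.0832 with array weights and -0.207 with the macrophage covariate. With 1 array left out, Herpud1 lay between -0.134 and 0.306 (negative without HFD 1-month replicate 2 or HFD 4-month replicate 1) and Eif2ak3 between -0.156 and 0.0014 (positive without HFD 4-month replicate 1). The cause was not tested. The number of arrays, 3 in a group, limits the precision, and the spread of the ATF4 genes within groups makes their differences the least certain.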
